A study of Mus musculus with 12 samples.

Results

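Peroxiredoxins, superoxide dismutases and catalase are antioxidant enzymes that carry no selenium, and their mRNA levels were examined in liver and lung of mice on 2 selenium diets. The 10 genes were Prdx1, Prdx2, Prdx3, Prdx4, Prdx5, Prdx6, Sod1, Sod2, Sod3 and Cat. A probe set counted as a member when the annotation of the array gave it to exactly 1 gene and that gene was among the 10. By this rule 17 of 29409 probe sets were members, and they stood for 7 of the 10 genes. Sod1 and Sod2 had 4 probe sets each, Prdx4 had 3, Prdx2 and Cat had 2, and Prdx3 and Sod3 had 1. The 5 probe sets of Prdx1 are also assigned to Gm21399, a Prdx1 pseudogene, so they are given below as shared probe sets and not as Prdx1. Prdx5 and Prdx6 had no annotated probe set in the tables used and were not analysed here.

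Superoxide dismutases convert superoxide to hydrogen peroxide, Sod1 with copper and zinc mainly in the cytosol, Sod2 with manganese in mitochondria, and Sod3 with copper and zinc outside the cell. Catalase breaks hydrogen peroxide down in peroxisomes, which are abundant in hepatocytes. Peroxiredoxins reduce peroxides through a reactive cysteine, mostly with electrons from thioredoxin, whose reductases are selenoproteins. They share hydrogen peroxide as a substrate with the selenium-dependent glutathione peroxidases.

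Total RNA of liver and lung from male wild-type FVB/N mice was hybridized to Affymetrix mouse expression arrays. The mice were given a Se-deficient torula yeast-based diet from weaning at 3 weeks of age for 6 weeks, with 0.1 ppm Se as sodium selenite (0.1 Se, selenium-adequate) or with 0 ppm added (0 Se, selenium-deficient). The 12 arrays formed the groups 0.1 Se liver, 0 Se liver, 0.1 Se lung and 0 Se lung, with 3 arrays each that the labels call biological replicates. All groups shared strain, sex and basal diet. Values were log2 MAS5 signals, and a probe set is called listed on an array when the table gave it a value. A blank stood for an absent call or a signal under 100, which could not be told apart. Liver arrays listed 17293 to 17981 probe sets and lung arrays 22251 to 22772, and arrays of 1 group correlated at r of 0.978 to 0.990 across probe sets. Hepatocyte markers were listed for 10 of 10 genes on every liver array, with summed signals of 510584 to 551211 in 0.1 Se liver and 437628 to 544164 in 0 Se liver. In lung these sums were 167 to 984, with blanks counted as 0. Of alveolar type 2 markers with a probe set, 6 of 6 were listed on every lung array. Both tissue labels thus matched these markers. Lung arrays also listed cardiac muscle markers, 7 of 8 genes on every array of each lung group. These summed to 5302 to 20020 in 0.1 Se lung and 4421 to 36887 in 0 Se lung. All 8 were blank on every liver array. The part of this muscle in the lung values was not tested.

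The sequences upstream of the genes with the largest level differences between the tissues are shown first, so that a reader can compare their promoter letters. The differences are those of each gene's probe set of the highest mean signal. By it these genes were all higher in liver, as were Prdx2 and Prdx3, whereas 1435304_at and 1440222_at of Sod1 were lower. Each run is the 200 bases before a start that the RefSeq promoter table gives on GRCm38.p6, 5′ to 3′ on the strand of the gene. For Cat, Sod1 and Sod2 the run ends where the gene's annotated span begins, whereas the Prdx4 run lies inside the span of its gene, chrX:155323918-155342272. Promoter entries were matched for 8 of the 10 genes; none was found for Prdx6 and Sod3. Capitals mark 4 motifs searched on both strands: the GC box GGGCGG, the CCAAT box CCAAT, the TATA box TATAAA and the core of the antioxidant response element TGACNNNGC, where N is any base. Neighbouring GC boxes of Sod1 overlap by shared letters.
Cat, chr2:103485154-103485353, minus strand: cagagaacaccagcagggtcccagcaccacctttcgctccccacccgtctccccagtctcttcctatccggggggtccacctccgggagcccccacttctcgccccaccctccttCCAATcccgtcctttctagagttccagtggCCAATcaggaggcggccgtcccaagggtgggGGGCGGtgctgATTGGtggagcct
Prdx4, chrX:155338461-155338660, minus strand: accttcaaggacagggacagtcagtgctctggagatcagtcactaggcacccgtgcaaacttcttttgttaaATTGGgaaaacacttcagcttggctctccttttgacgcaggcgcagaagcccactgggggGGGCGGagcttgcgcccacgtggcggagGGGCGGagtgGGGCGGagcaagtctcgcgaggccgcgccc
Sod2, chr17:13007639-13007838, plus strand: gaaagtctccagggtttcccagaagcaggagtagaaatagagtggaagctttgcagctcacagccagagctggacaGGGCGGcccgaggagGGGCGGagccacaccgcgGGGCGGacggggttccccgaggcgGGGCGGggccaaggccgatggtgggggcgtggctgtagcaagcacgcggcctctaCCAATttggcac
Sod1, chr16:90220562-90220761, plus strand: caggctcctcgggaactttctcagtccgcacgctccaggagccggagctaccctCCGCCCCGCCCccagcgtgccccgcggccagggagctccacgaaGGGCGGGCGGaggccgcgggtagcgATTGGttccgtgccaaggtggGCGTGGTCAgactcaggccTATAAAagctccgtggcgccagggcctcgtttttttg

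These runs differed in their motif content. Cat held 3 CCAAT boxes and 1 GC box, Prdx4 held 3 GC boxes and 1 CCAAT box, and Sod2 held 4 GC boxes and 1 CCAAT box. Sod1 held 4 GC boxes and 1 CCAAT box, and it was the only 1 of the 4 with a TATA box and an antioxidant response element core. Among 32851 promoters of the same length, a GC box was found in 31%, a CCAAT box in 29.3%, a TATA box in 9.96% and the antioxidant response element core in 8.6%. The GC content was 65.5% for Cat, 61.5% for Prdx4, 66.5% for Sod2 and 68.5% for Sod1, against a median of 53% over all promoters. It was 71% for Prdx2, 66% for Prdx1, 61% for Prdx3 and 59.5% for Prdx5, so a GC content above that median was not particular to the genes shown. Of the other genes, Prdx1 held 1 GC box, 1 TATA box and 1 antioxidant response element core. Prdx3 held 1 GC box, and Prdx2 and Prdx5 held none of the 4 motifs. A match of letters is a description and not a measured binding site.

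The first question was whether 0.1 Se and 0 Se differed in the levels of these enzymes. In liver, limma with Benjamini-Hochberg adjustment over 16575 probe sets called 0 of the 16 member probe sets tested at adjusted p under 0.05, beside 0.0121% of all probe sets. At an unadjusted p under 0.05 it passed 1 of 16, beside 6.65% of all, and the smallest adjusted p among the members was 0.616. The median log2 difference over the 16, 0.1 Se minus 0 Se, was 0.042, and that over all probe sets tested was -0.0047. Leaving out 1 array gave medians of -0.0086 (without 0 Se liver replicate 1) to 0.056, so the direction of the liver median depended on single arrays. In lung, 0 of 15 member probe sets were called among 21655 tested, beside 0.0924% of all. At an unadjusted p under 0.05 limma passed 1 of 15, beside 7.67% of all, and the smallest adjusted p was 0.571. The median over the 15 was -0.10, beside -0.0077 over all, and leaving out 1 array gave -0.12 to -0.048, the smallest in size without 0.1 Se lung replicate 1 and -0.055 without 0 Se lung replicate 1.

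With 3 arrays a group the typical member had a standard error of 0.11 in liver and 0.12 in lung on the log2 scale. The smallest two-sided p an exact permutation test can reach with such groups is 0.1. Below, each gene is first given by the brightest of its probe sets (highest mean signal over arrays), and intervals are 95% intervals of the limma fit. In bulk tissue, fewer cells of a type and less RNA per cell cannot be told apart.

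**Figure D1:**
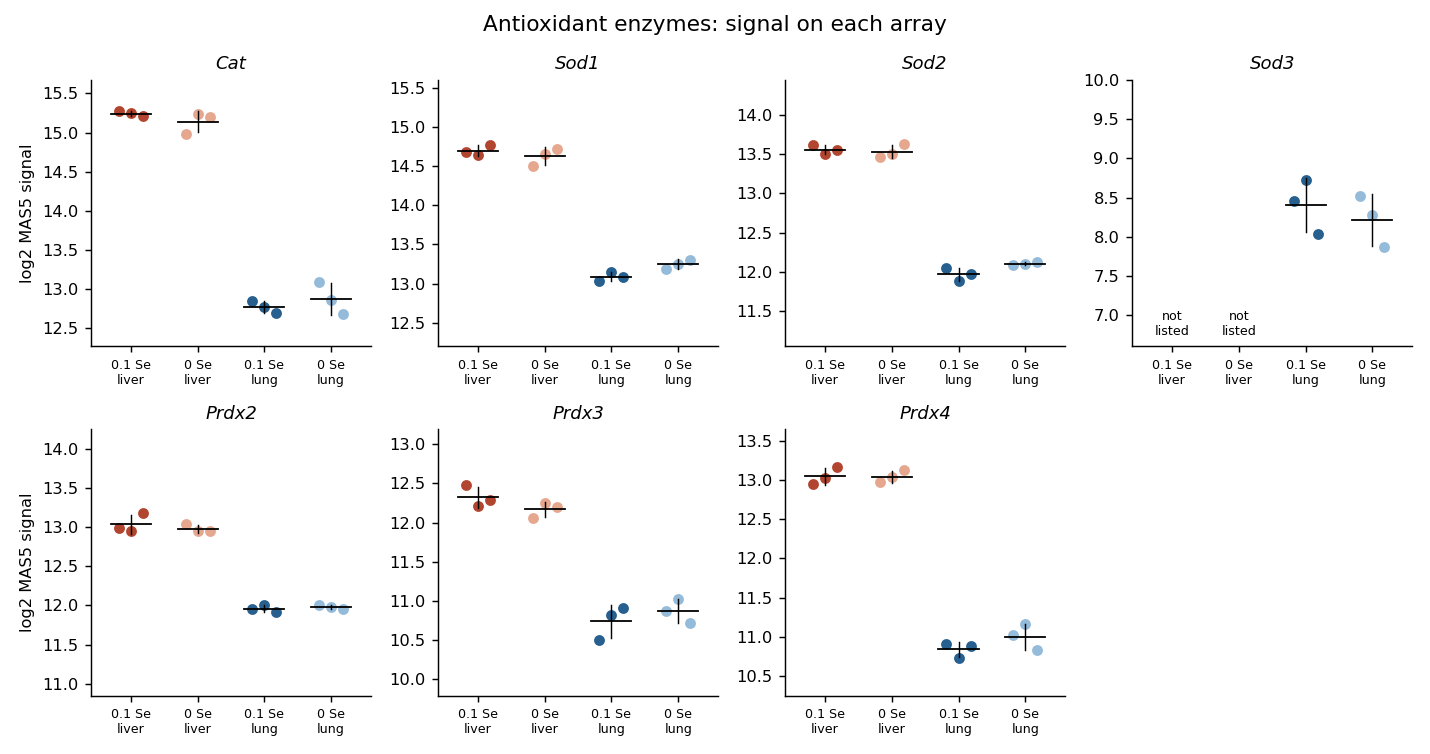
Log2 MAS5 signal (y axis) of the probe set with the highest mean signal of each gene on the 12 arrays, by group (x axis), with points for arrays, horizontal lines for group means, vertical lines for 1 SD and panels of equal log2 height. Diets overlap or nearly touch within a tissue, the liver arrays lie above the lung arrays in 6 genes, and Sod3 is listed in lung only.

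Sod1 is the cytosolic enzyme. Its probe set 1451124_at gave 14.68, 14.64 and 14.77 in 0.1 Se liver and 14.50, 14.65 and 14.72 in 0 Se liver on the log2 scale. In 0.1 Se lung it gave 13.03, 13.14 and 13.09, and in 0 Se lung 13.18, 13.25 and 13.31. The diets overlapped in liver, whereas all 0.1 Se lung arrays lay below all 0 Se lung arrays. The log2 difference between diets was 0.07 in liver (interval -0.13 to 0.28) and -0.16 in lung (interval -0.35 to 0.04). The lung value corresponded to an adjusted p of 0.755 by limma and an exact permutation p of 0.1, the smallest that 3 against 3 arrays allow.

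Between tissues Sod1 stood 2.81-fold higher in liver by this probe set, with a log2 difference of 1.49 (SE 0.060, adjusted p = 2.46e-12 by limma). Every liver array was above every lung array. The order of the group means was 0.1 Se liver, 0 Se liver, 0 Se lung and 0.1 Se lung, and within a tissue neighbours were not called different. Probe set 1459976_s_at had the same direction, with a log2 difference of 1.33 (SE 0.081). Its name ending marks probes that can bind related transcripts.

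The other Sod1 probe sets went the other way. Probe set 1435304_at gave 7.97, 8.58 and 8.53 in 0.1 Se liver and 8.62, 8.75 and 8.23 in 0 Se liver, against 9.23, 9.38 and 9.28 in 0.1 Se lung and 9.27, 9.25 and 9.46 in 0 Se lung. All liver arrays were below all lung arrays, and the log2 difference was -0.86 (SE 0.12, adjusted p = 1.08e-05 by limma). Probe set 1440222_at gave 8.20, 7.80 and 7.92 in 0.1 Se liver and 7.67, 8.02 and 7.85 in 0 Se liver, against 8.16, 8.19 and 8.23 in 0.1 Se lung and 8.31, 8.503 and 8.44 in 0 Se lung. Here 1 liver array reached into the lung range, and the log2 difference of -0.40 (adjusted p = 0.00319 by limma) was lost with median centring of the arrays (adjusted p = 0.112) and in the 0.1 Se arrays alone (adjusted p = 0.258). Which transcript of the Sod1 locus these dim probe sets bind is not given in the sources used here.

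**Figure D2:**
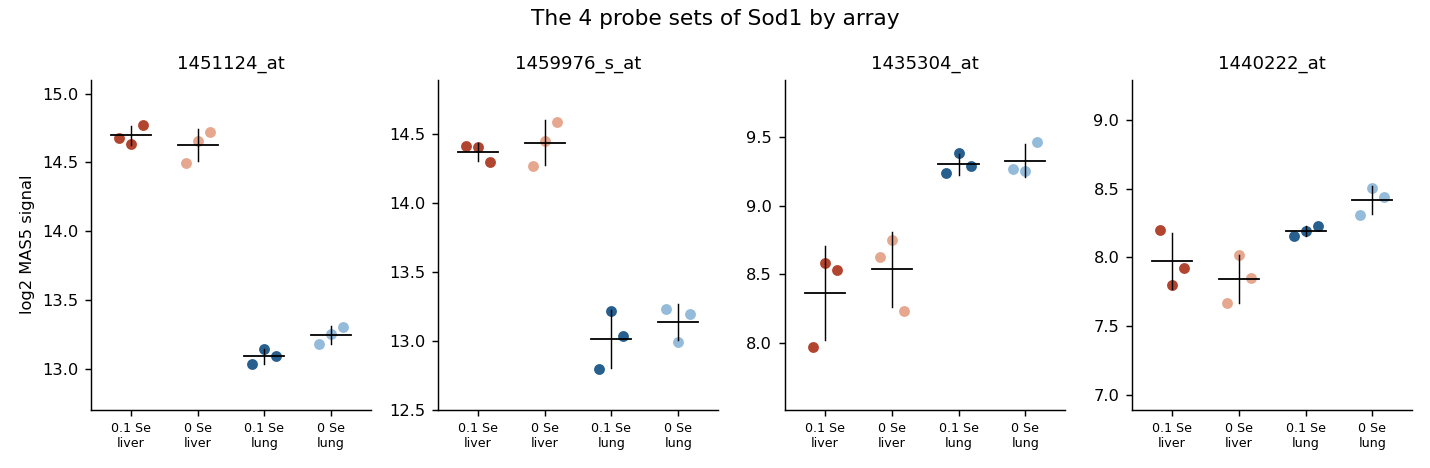
Log2 MAS5 signal (y axis) of the 4 probe sets annotated to Sod1 on each array, by group (x axis), with group means (horizontal lines) and 1 SD (vertical lines). The first pair, 1451124_at and 1459976_s_at, lies higher in liver, and 1435304_at and 1440222_at lie lower in liver.

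Sod2 is the manganese enzyme of mitochondria. Probe set 1448610_a_at gave 13.62, 13.50 and 13.56 in 0.1 Se liver and 13.46, 13.51 and 13.63 in 0 Se liver. In 0.1 Se lung it gave 12.05, 11.88 and 11.98, and in 0 Se lung 12.09, 12.09 and 12.12. The diets overlapped in liver, and in lung the 0 Se arrays lay close together above all 0.1 Se arrays. The diet difference was 0.026 in liver (interval -0.16 to 0.22) and -0.13 in lung (interval -0.31 to 0.05; exact permutation p = 0.1). A second bright probe set, 1417193_at, gave 13.37, 13.37 and 13.40 in 0.1 Se liver and 13.20, 13.20 and 13.41 in 0 Se liver.
In lung 1417193_at gave 11.31, 11.15 and 11.29 with 0.1 Se and 11.46, 11.44 and 11.46 with 0 Se. Its lung arrays again did not overlap, and its log2 difference of -0.21 (interval -0.39 to -0.026, adjusted p = 0.571 by limma) was the 1 lung value past an unadjusted p of 0.05. Probe set 1454976_at did not share that direction, with 0.061 in lung (interval -0.17 to 0.29).

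All 3 Sod2 probe sets tested were higher in liver. The log2 differences between tissues were 1.51 for 1448610_a_at (SE 0.057, 2.85-fold, adjusted p = 1.12e-12 by limma), 1.98 for 1417193_at and 1.20 for 1454976_at. No liver array of these probe sets fell into the lung range. The fourth, 1417194_at, was listed on 2 arrays of 0.1 Se liver at 7.19 and 6.76 and on 2 arrays of 0 Se liver at 6.86 and 6.64, next to the lowest value of the table, and on no lung array.

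Sod3, the extracellular enzyme, is known for its high level in lung and vessel walls. Its probe set 1417633_at was listed on none of the 6 liver arrays and on all 6 lung arrays. It gave 8.45, 8.72 and 8.04 in 0.1 Se lung and 8.52, 8.27 and 7.86 in 0 Se lung. The diets overlapped, and the log2 difference was 0.18 (interval -0.30 to 0.66, adjusted p = 0.897 by limma). No fold between tissues is given, since a blank is not a measured level.

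Catalase had the largest difference between tissues of the 6 genes tested in both. Probe set 1416430_at gave 15.28, 15.24 and 15.21 in 0.1 Se liver and 14.99, 15.24 and 15.20 in 0 Se liver. In 0.1 Se lung it gave 12.85, 12.77 and 12.70, and in 0 Se lung 13.09, 12.86 and 12.68. Diets overlapped in both tissues, and liver was far above lung on every array. The level in liver was 5.16-fold that in lung, a log2 difference of 2.37 (SE 0.074, adjusted p = 1.28e-13 by limma), and the second probe set, 1416429_a_at, gave 2.16 (SE 0.12). The diet difference was 0.10 in liver (interval -0.11 to 0.31) and -0.10 in lung (interval -0.35 to 0.14). The second probe set had the opposite signs, -0.14 in liver and 0.012 in lung, so the direction of neither tissue was shared within the gene.

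Prdx2 is a cytosolic peroxiredoxin that is abundant in red blood cells. Probe set 1418506_a_at gave 12.98, 12.95 and 13.18 in 0.1 Se liver and 13.04, 12.95 and 12.95 in 0 Se liver. In 0.1 Se lung it gave 11.96, 12.004 and 11.92, and in 0 Se lung 12.0004, 11.98 and 11.96. The diets overlapped in both tissues, with differences of 0.058 in liver (interval -0.15 to 0.26) and -0.018 in lung (interval -0.19 to 0.15). It was 2.05-fold higher in liver, a log2 difference of 1.04 (SE 0.057, adjusted p = 1.25e-10 by limma), the smallest among the 6 genes. The second probe set, 1430979_a_at, was listed on 2 arrays of 0.1 Se liver at 7.22 and 7.25 and on 3 of 0 Se liver at 7.34, 7.04 and 7.04, and on no lung array.

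Prdx3 is the mitochondrial peroxiredoxin that works with thioredoxin 2. Probe set 1416292_at gave 12.47, 12.21 and 12.29 in 0.1 Se liver and 12.06, 12.25 and 12.20 in 0 Se liver. In 0.1 Se lung it gave 10.51, 10.82 and 10.90, and in 0 Se lung 10.87, 11.03 and 10.72. The diets overlapped, with differences of 0.15 in liver (interval -0.07 to 0.38) and -0.13 in lung (interval -0.40 to 0.14). Liver was 2.71-fold above lung, a log2 difference of 1.44 (SE 0.083, adjusted p = 2.23e-10 by limma), with no overlap between tissues.

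Prdx4 works in the endoplasmic reticulum, where it passes oxidizing power from hydrogen peroxide to protein disulfide isomerases. Probe set 1416167_at gave 12.95, 13.03 and 13.16 in 0.1 Se liver and 12.97, 13.03 and 13.12 in 0 Se liver. In 0.1 Se lung it gave 10.91, 10.73 and 10.88, and in 0 Se lung 11.02, 11.16 and 10.83. The liver means were nearly equal, with a difference of 0.0026 (interval -0.20 to 0.21), and the lung difference was -0.16 (interval -0.39 to 0.07). Liver was 4.36-fold above lung, a log2 difference of 2.12 (SE 0.070, adjusted p = 2.63e-13 by limma).

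The dimmer Prdx4 probe sets varied more. Probe set 1416166_a_at gave 10.78, 10.74 and 10.11 in 0.1 Se liver and 11.42, 10.98 and 10.98 in 0 Se liver, against 9.03, 8.65 and 8.48 in 0.1 Se lung and 9.02, 8.48 and 8.33 in 0 Se lung. It was the only member whose liver diets did not overlap, with the 0.1 Se arrays below, and its difference of -0.59 (interval -1.004 to -0.17, adjusted p = 0.616 by limma) was the 1 liver value past an unadjusted p of 0.05. Probe set 1435731_x_at gave 10.01, 10.01 and 9.80 in 0.1 Se liver and 10.03, 10.01 and 10.37 in 0 Se liver, against 8.74, 8.47 and 8.13 in 0.1 Se lung and 8.34, 8.10 and 7.75 in 0 Se lung. Its diet differences were -0.20 in liver and 0.38 in lung. The 3 probe sets of Prdx4 thus did not share a diet direction in either tissue, but all were higher in liver than in lung, the dimmer pair by 2.17 and 1.78 on the log2 scale.

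The brightest probe sets of the 6 genes tested in both tissues had diet differences between 0.0026 and 0.15 in liver and between -0.16 and -0.018 in lung, and Sod3 had 0.18 in lung. In liver, 0.1 Se arrays lay wholly below 0 Se arrays in 1 of 14 member probe sets listed on all 6 arrays, beside 7.22% of all probe sets, and wholly above in 0, beside 4.99% of all. In lung they lay wholly below in 4 of 15, beside 6.86% of all, and wholly above in 0, beside 6.07% of all. These 4 were 1451124_at and 1440222_at of Sod1 and 1448610_a_at and 1417193_at of Sod2, so they stood for 2 genes and probe sets of 1 gene share their RNA. None of the 4 was called (adjusted p of 0.571 to 0.782 by limma).

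The summed signals of 14 marker lists of cell types were set beside these values without a test, with blanks counted as 0. In lung the diets did not overlap for 4 of the 14 lists. Of single probe sets listed on all 6 lung arrays, 6.86% lay wholly below with 0.1 Se and 6.07% wholly above. The ciliated cell list, with 7 of 7 genes on probe sets, summed to 1206 to 2297 in 0.1 Se lung and 2707 to 3489 in 0 Se lung. Of these genes, 6 were listed on every 0.1 Se lung array and 7 on every 0 Se lung array. The bile duct list, with 5 of 6 genes on probe sets, Sox9 blank and keratins that airway epithelium also expresses, summed to 10519 to 11405 in 0.1 Se lung and 11592 to 12927 in 0 Se lung. These 2 lists were lower with 0.1 Se on every array, and the next 2 were higher. Neutrophil markers, with 6 of 8 genes on probe sets, summed to 4469 to 17343 in 0.1 Se lung and 1375 to 3525 in 0 Se lung. In each lung group 4 of the 6 were listed on all its arrays, and Cxcr2 was blank throughout 0 Se lung. Red blood cell markers, with 3 of 10 genes on probe sets, summed to 5086 to 5407 in 0.1 Se lung and 4109 to 5044 in 0 Se lung. All 3 were listed on every 0.1 Se lung array, and 2 on every 0 Se lung array. In liver 1 of the 14 lists did not overlap, beside 4.99% of single probe sets wholly above with 0.1 Se and 7.22% wholly below. This list was Kupffer cell and macrophage markers, with 11 of 12 genes on probe sets and Chil3 blank. It summed to 26132 to 32448 in 0.1 Se liver and 18505 to 24427 in 0 Se liver. The part of these cell types in the small diet differences was not tested.

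**Figure D3:**
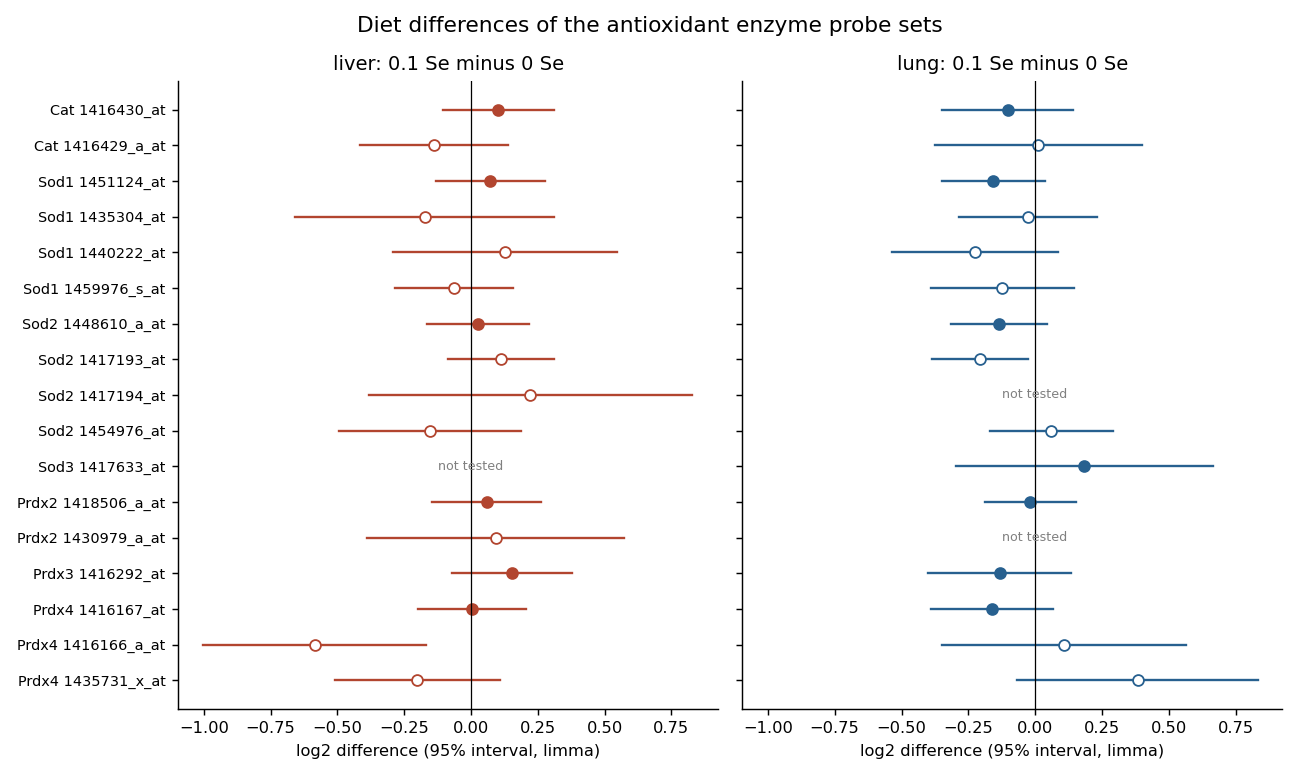
Log2 difference (x axis), 0.1 Se minus 0 Se, of the 17 member probe sets (y axis) in liver and lung, with 95% intervals from limma and filled points for the brightest probe set of each gene. Most intervals cross 0, and 1416166_a_at in liver and 1417193_at in lung are the exceptions.

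The interaction compared the response to diet between tissues, taken as the lung response minus the liver response over all 12 arrays. Limma called 0 of 14 member probe sets among 15112 tested, beside 0% of all, and the smallest adjusted p among members was 0.760. At an unadjusted p under 0.05 it passed 3 of 14, beside 6.16% of all. These were 1417193_at of Sod2 at -0.32 (interval -0.57 to -0.067), and 1416166_a_at and 1435731_x_at of Prdx4 at 0.69 and 0.58. This Sod2 value ran opposite to these Prdx4 values. The brightest Prdx4 probe set, 1416167_at, had -0.16, and Sod2 1454976_at had 0.21, so neither gene had a single direction. The median over the 14 was -0.12, beside -0.00093 over all, and 9 of 14 were below 0.

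The level by tissue gave the clearest differences. Limma called 14 of the 14 member probe sets tested, 12 higher in liver, beside 33.9% of all, and 2 lower in liver, beside 47.7% of all. All 12 that were higher were at least 2-fold higher under the deposited scaling, beside 15.5% of all. Under quantile normalization not all of them were, as with Sod1 1451124_at at 0.71 and Prdx2 1418506_a_at at 0.34 on the log2 scale. The 2 that were lower were the dim Sod1 probe sets 1435304_at and 1440222_at. All liver arrays lay above all lung arrays in 12 of 14, beside 28.8% of all probe sets listed on every array, and below in 1 of 14, beside 37.8%. The median log2 difference over the 14, liver minus lung, was 1.501, whereas that over all 15112 probe sets tested was -0.18. These counts leave out 1417633_at of Sod3, 1430979_a_at of Prdx2 and 1417194_at of Sod2, which had too few listed values in a tissue.

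The order of the genes by this difference was Cat (2.37), Prdx4 (2.12), Sod2 (1.51), Sod1 (1.49), Prdx3 (1.44) and Prdx2 (1.04) on the log2 scale. Sod2, Sod1 and Prdx3 lay within 1 standard error of their neighbour, and their intervals, 1.39 to 1.63, 1.36 to 1.62 and 1.26 to 1.61, overlapped. The direction was present on either diet. With 0.1 Se the differences were 2.47 for Cat, 2.20 for Prdx4 and 1.08 for Prdx2, and with 0 Se they were 2.26, 2.04 and 1.00.

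Scaling set the size of the tissue differences but not their direction in these 6 genes. Quantile normalization of the arrays moved the median of all probe sets to -0.45 and gave 1.61 for Cat, 1.55 for Prdx4, 0.96 for Prdx3, 0.77 for Sod2, 0.71 for Sod1 and 0.34 for Prdx2, each still called (adjusted p at most 2.88e-05 by limma). Median centring moved the median of all to 0.015 and gave 2.57 for Cat and 1.24 for Prdx2. The tissues also differed in cell makeup by their labels, since hepatocyte markers were near 0 in lung and the 7 ciliated cell markers were blank in liver, and what each cell type contributed was not tested.

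**Figure D4:**
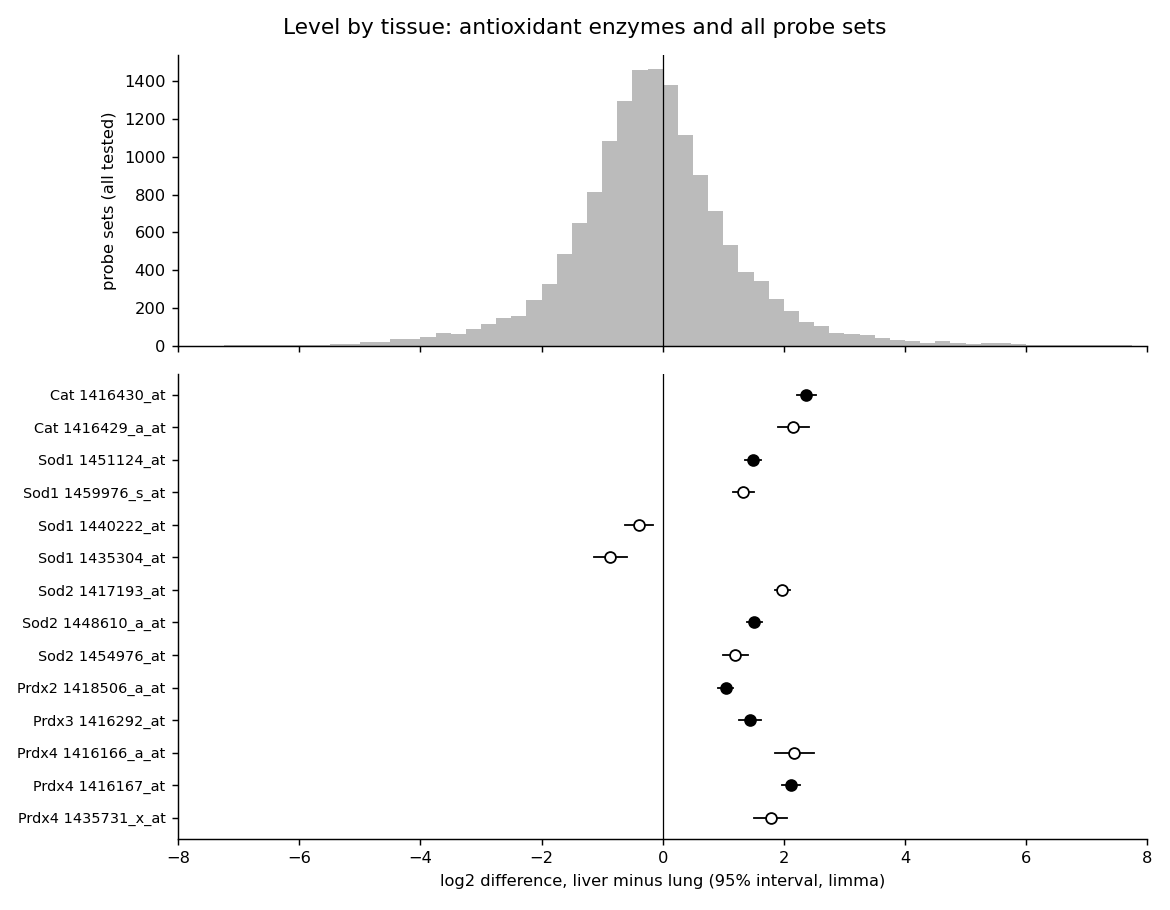
Log2 difference (x axis), liver minus lung, for all 15112 probe sets tested (upper panel, number of probe sets per bin) and for the 14 member probe sets tested (lower panel, with 95% intervals from limma and filled points for the brightest probe set of each gene). The 12 positive members lie at 1.04 or more, to the right of most probe sets, and 2 of Sod1 lie below 0.

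Prdx1 could not be separated from Gm21399. The 5 shared probe sets gave log2 differences between diets of -0.26 to 0.13 in liver and -0.21 to 0.084 in lung, and limma called none of them (smallest adjusted p 0.745 in liver and 0.798 in lung). In liver 1437014_x_at gave 11.43, 11.36 and 11.18 with 0.1 Se and 11.77, 11.55 and 11.45 with 0 Se, and its arrays did not overlap. Between tissues all 5 were called higher in liver, by 0.84 to 1.46 on the log2 scale. These 5 are given under the deposited scaling only, and their values under quantile normalization were not examined. That scaling lowered Cat from 2.37 to 1.61 and Sod1 from 1.49 to 0.71. The brightest by mean signal, 1436691_x_at, gave 15.36, 15.41 and 15.39 in 0.1 Se liver and 15.21, 15.33 and 15.47 in 0 Se liver, against 14.26, 14.63 and 14.51 in 0.1 Se lung and 14.47, 14.58 and 14.70 in 0 Se lung.

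Other genes of the pathway were counted from 7 lists, each gene by its brightest probe set. Limma called no gene of any list in the diet comparisons or the interaction. Between tissues the counts below stand beside 33.9% of all probe sets tested that were higher in liver and 47.7% that were lower. Of 14 tested genes that supply electrons to peroxiredoxins or repair them, 10 were higher in liver, 3 lower and 1 not called, with a median of 0.74 beside -0.18 over all probe sets tested. Glutaredoxin 5 (Glrx5) at 2.26, Gstp1, a glutathione transferase that helps to reduce Prdx6, at 2.31, and glutaredoxin (Glrx) at 2.23 had the smallest p. Named after their values were seen, mitochondrial thioredoxin Txn2 was 2.18 higher and sulfiredoxin Srxn1, which repairs overoxidized peroxiredoxins, 0.96 higher. Txnip, the thioredoxin inhibitor, was lower in liver at -2.60, as were Sesn1 and Txnrd3. Under quantile normalization 7 of the 14 were higher and 5 lower.

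Genes of the metal supply of superoxide dismutases changed in both directions. Of 11 genes tested, 5 were higher in liver, 3 lower and 3 not called, with a median of -0.14 beside -0.18 over all, and under quantile normalization 5 were higher and 5 lower. Slc39a14, an importer of zinc and manganese, was higher by 3.39 on the log2 scale, and Slc25a39, a mitochondrial carrier, by 1.99. Atp7a, the copper pump that loads secreted copper enzymes such as Sod3, was lower in liver at -2.78. Ccs, the copper chaperone of Sod1, was chosen after its values were seen and was higher by 2.95 (SE 0.097, adjusted p = 2.46e-13 by limma).

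Most peroxisome genes stood higher in liver, as catalase did. Of 16 import and membrane genes tested, 15 were higher (14 under quantile normalization), 0 lower and 1 (Abcd2) not called, with a median of 1.68. Pex5, the receptor that carries catalase and other enzymes into peroxisomes, was higher by 2.84, Abcd3, a fatty acid transporter of the peroxisomal membrane, by 2.18, and Pex16, needed to form that membrane, by 3.49. Of the oxidases that make hydrogen peroxide, 5 of 8 with a probe set (Acox3, Hao1, Uox, Dao and Pipox) were blank on every lung array and could not be tested. The 2 tested were Ddo, D-aspartate oxidase, higher in liver by 1.19, and Xdh, xanthine dehydrogenase, lower at -1.39 and mainly cytosolic.

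Of 5 tested genes that produce superoxide, 4 were lower in liver, as were 47.7% of all probe sets. They were led by subunits of the phagocyte oxidase, Cyba at -2.34 and Ncf1 at -1.86, and its regulator Rac2 at -1.33. Nox4 was higher by 0.28 and, under quantile normalization, 0 of the 5 were higher. Cybb, the catalytic subunit, had the smallest p of this list for diet, with 0.69 in liver (adjusted p = 0.441 by limma) and 0.86 in lung (adjusted p = 0.414), neither called. For oxidative folding in the endoplasmic reticulum, where Prdx4 works, 6 of 8 were higher in liver (5 under quantile normalization) and 2 lower (Qsox2 and Ero1a). Ero1b was higher by 2.35, and the disulfide isomerases P4hb and Pdia4 by 1.24 and 1.43.

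Glutathione peroxidases also reduce peroxides, Gpx1, Gpx3 and Gpx4 as selenoproteins and Gpx7 with a cysteine in place of selenocysteine. Limma called 0 of 3 tested in liver and 0 of 6 in lung for diet, and the median difference was 0.56 in liver and -0.068 in lung. Gpx1 had a diet difference of 0.56 in liver (SE 0.11, adjusted p = 0.377 by limma) and 0.32 in lung (SE 0.12, adjusted p = 0.536 by limma). In the paper, qPCR found significantly more Gpx1 mRNA on the selenium-adequate diet in both tissues. An uncalled value here thus does not show that a gene did not respond to diet. Gpx4 had -0.096 in liver (adjusted p = 0.869) and -0.28 in lung (adjusted p = 0.538), and Gpx3 had 0.47 in lung (adjusted p = 0.490). Gpx7 had 0.62 in liver (adjusted p = 0.757 by limma). The uncalled values of this list did not share a sign, with Gpx4 alone below 0 in liver and 3 of 6 above 0 in lung. Between tissues Gpx1 was higher in liver by 1.78 and Gpx4 by 0.68, and Gpx7 was lower at -1.83. Under quantile normalization 1 of the 3 was higher and 2 were lower, with a median of -0.17. Gpx1 and Gpx4 thus did not both keep their direction under that scaling. Thioredoxin reductase Txnrd1, which feeds electrons to peroxiredoxins through thioredoxin, had diet differences of 0.37 in liver (adjusted p = 0.616) and -0.31 in lung (adjusted p = 0.439), and an interaction of -0.68 (adjusted p = 0.536 by limma), none of them called.

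**Figure D5:**
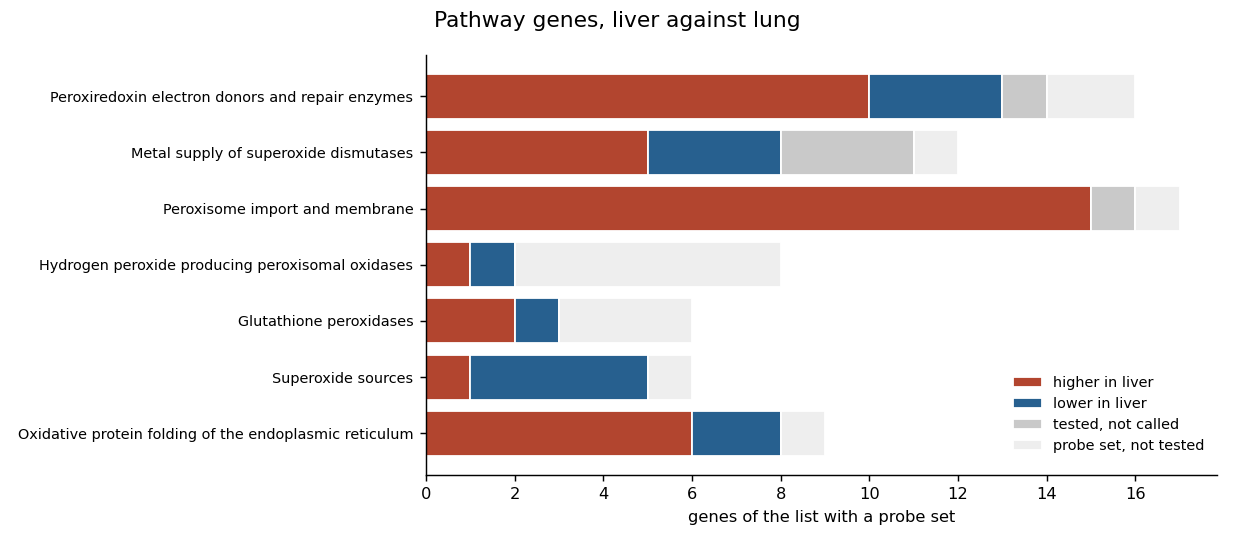
Number of genes with a probe set in each of 7 pathway lists (x axis) that were called higher or lower in liver than in lung by limma at adjusted p under 0.05, were tested and not called, or were not tested. The import and membrane list of peroxisomes has 15 of 16 tested genes higher, and superoxide sources have 4 of 5 lower.

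The genes whose pattern over arrays was most like that of Cat and Sod2 were sought among 12074 single-gene probe sets listed on all 12 arrays. Likeness was the lower of 2 Pearson correlations, over the 6 liver arrays and over the 6 lung arrays, which share RNA preparation and scaling on each array. For Cat these were Slc25a32 (r of 0.89 in liver and 0.97 in lung), Wdr73 (0.86 and 0.91) and Cfap36 (0.93 and 0.85). For Sod2 they were Chchd10 (0.92 and 0.96), Gsta4 (0.91 and 0.96) and Baiap2l1 (0.93 and 0.91). With 6 points each these values are descriptions only.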

How the data were processed

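RNA of 12 samples (liver and lung, 2 diets, 3 replicates) had been labelled with a 3′ IVT kit. The authors removed absent calls and computed MAS5 signals array by array, and their processing notes list the tools R 2.15.2 and affy 1.36.0. Deposited values are log2 signals of 29467 probe sets from 6.64 (a signal of 100) upwards, with 112136 blank cells. They were used as deposited, without 58 control probe sets, and 0 columns lacked a sample. Precision is limited by the number of arrays.

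Gene names came from the platform annotation, updated by Entrez number through RefSeq genes (24504 single-gene probe sets). A probe set was tested with at least 2 values in each group, and blanks stayed missing. Diets were compared within each tissue over 6 arrays, and the interaction and the tissues over 12 arrays, with limma 3.58.1 (R 4.3.3, data.table version 1.17.8, empirical Bayes with a trend), Benjamini-Hochberg adjustment over all probe sets tested, and a call at adjusted p under 0.05. Tables used Python 3.11.15, pandas 2.3.3, numpy 2.4.6 and scipy 1.17.1, and plots matplotlib 3.10.9. The code was tested on simulated data. All member probe sets were named; of each list, up to 3 genes with the smallest p. Members, lists and markers were chosen with earlier results of these data known. Alternatives changed the filter, blanks, scaling, log offset (32 added to the signal), spread model, array weights, replicate block, _x_at and _s_at probe sets, arrays left out, arrays fitted and the methods' t-test.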

Additional observations from a re-analysis of the deposited data

How the results depend on the processing

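Of 164 alternative values of the counts and medians over members, 162 differed from the value given by less than 1 SD between replicates, or, for counts, by less than 1.5 times. The liver diet median was among them, although it changed sign without 0 Se liver replicate 1. Both that moved were the tissue median of the members, 1.501 as given, which was 0.93 with quantile normalization and 1.70 with median centring, where the median of all probe sets was -0.45 and 0.015, against -0.18 as given. All 535 values of single genes kept their call. In the tissue comparison the 6 genes were called in each of 25 alternatives. No diet value was called at adjusted p under 0.05 in any of 19 alternatives a tissue, the methods' t-test after the same adjustment included. For array genes the authors took t-test p under 0.05 with no adjustment named. That rule was not applied to single genes here, so the alternatives do not show which member genes it would have called. Uncalled values changed sign for Prdx2, Prdx4 and Sod2 in liver and for Cat and Prdx2 in lung. Correlations of the deviations of same-numbered samples were -0.188 to 0.147 between diets and -0.0391 to 0.11 between tissues. They were not all over 0.1, so the numbers were not taken as pairs, although in 0 Se liver and lung each number matched its own best (0.0638 to 0.11). The sample titles do not say whether liver and lung came from the same mice, and such correlations cannot decide it. The tissue and interaction fits as given took the arrays as independent. With the replicate block limma called 0 member probe sets in either diet comparison and in the interaction and 14 between tissues, and the diet medians were 0.026 in liver and -0.10 in lung. With 3 arrays a group, differences as large as -0.59 for Prdx4 1416166_a_at in liver were not called after adjustment, and blanks hide levels under a signal of 100.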
